A study of Mus musculus with 6 samples.

Results

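Wnt signaling in the growth plate was followed through 10 genes chosen by name in a table of 15803 genes: the ligands Wnt5a, Wnt5b and Wnt11, the secreted antagonists Frzb, Sfrp5, Wif1 and Dkk3, the effectors Ctnnb1 and Lef1, and the target gene Axin2. All 10 were found. Poly(A) RNA came from growth plate cartilage of E18.5 mouse embryos. The genotype of the 3 libraries labelled CKO was Col2a1-Cre;Hnrnpk fl/fl. Here Cre is driven by the Col2a1 promoter, which is active in chondrocytes and their precursors, and other cells of the dissection keep the loxP-flanked exons of Hnrnpk. The 3 libraries labelled WT were of Hnrnpk fl/fl littermates, so both genotypes carry the floxed alleles. Embryos of both sexes were used, and the labels do not say whether a library is 1 embryo or a pool.

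Wnt proteins are secreted lipid-modified ligands that bind Frizzled receptors. In the canonical branch the receptor signal spares β-catenin from breakdown by a complex built on Axin, and β-catenin then acts with TCF/LEF factors on target genes, of which Axin2 is itself a brake on the pathway. Wnt5a, Wnt5b and Wnt11 act mainly through the branches that do not need β-catenin and that orient and space growth plate chondrocytes. The antagonists are secreted: Frzb and Sfrp5 carry a domain like the ligand-binding part of Frizzled, Wif1 binds Wnt proteins through its own WIF domain, and Dkk3 is the most divergent member of the Dickkopf family.

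Among the chosen genes, only Frzb and Sfrp5, both secreted antagonists, passed the adjusted test with all libraries. Frzb was lower in the libraries labelled CKO, without overlap between genotypes, and Sfrp5, which was low but present in each WT library, had 0 reads in the CKO libraries. The fall of Frzb was not told apart from that of Col2a1, and Sfrp5 rested on 28 reads in all. Wif1 was higher in each CKO library without passing the adjusted test. Dkk3 was higher in CKO 1 and CKO 3 and far lower in CKO 2. No difference between genotypes passed the test for Wnt5a, Wnt5b, Ctnnb1 or Lef1, and Wnt11 and Axin2 were almost unread in both genotypes.

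The reads recovered from the deposited CPM (reads on a gene per 1000000 reads on all listed genes) numbered 1153871 to 1454094 per library, so that 1 read was worth 0.688 to 0.867 CPM. Replicates within a genotype correlated at 0.921 to 0.965 on the log2(CPM + 1) scale, with CKO 2 and WT 3 each farther from the other 2 libraries of their genotype. Hnrnpk did not separate the genotypes, at 842 to 955 CPM in WT and 759 to 949.9 CPM in CKO (log2 change -0.14, limma's adjusted p = 0.622), so each direction given here rests on the labels of the libraries. Counts are of the gene as a whole, and the floxed exons were not analysed here. The label of the tissue was borne out by Col2a1, at 1411 to 3944 CPM, and Acan, at 147 to 746 CPM. The 8 cartilage markers summed to between 15536 and 21272 CPM in WT and to between 4493 and 5359 CPM in CKO. Endothelial markers were near 0 in each library (5 genes, 0.688 to 4.33 CPM summed), while 8 skeletal muscle markers summed to 19.5 to 88.7 CPM in WT, 61.5 and 64.0 CPM in CKO 3 and CKO 1, and 244 CPM in CKO 2.

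Limma was fitted to log2(CPM + 1) for the 12155 genes whose mean over all 6 libraries reached 1 CPM, with Benjamini-Hochberg adjustment over these genes. Of the 10 Wnt genes, 8 passed this filter, and Wnt11 and Axin2 did not. Sfrp5 and Wnt5b passed it through their WT libraries, so the 8 are not a neutral sample of the 10. The 10 were chosen with earlier results of these data known, so the shares called are not neutral beside those of all genes. At an adjusted p under 0.05, 2 of the 8 were lower in CKO, where 2.60% of all genes tested were lower. None was higher with limma, against 3.18% of all genes tested. At an unadjusted p under 0.05, 1 gene (Wif1) was higher, where 11.2% of all genes tested were. On the recovered reads, edgeR tested 5 of the 10 genes and DESeq2 gave an adjusted p for 5. Both called 0 higher, against 4.85% and 4.08% of all genes they tested, and 1 lower (Frzb), against 4.71% and 3.61%. Without CKO 2, limma called 2 higher (Wif1 and Dkk3), against 5.74% of all genes, and 2 lower, against 5.03%, and without WT 3 it called 2 lower, against 1.82%. The study's criterion asks for a change of more than 1 log2 unit in either direction and an unadjusted p under 0.05. Frzb and Sfrp5 met it, against 5.10% of all genes lower, and 0 higher did, against 5.30%. Without CKO 2 it was met by 1 gene higher (Dkk3), against 5.61%. Genotypes were without overlap for 5 of the 8. Of these, 1 was higher in CKO, where 14.5% of all genes were, and 4 were lower, where 13.2% of all genes were. The median log2 change of the 8 was -0.20, beside 0.013 over all genes tested. For 1 gene alone, the exact permutation test (two-sided) cannot go under p = 0.1 with 3 libraries a group, and each gene without overlap was at this limit. Nothing in the labels ties a library to its own embryo or culture, and the p-values measure only the spread between these libraries.

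**Figure D1:**
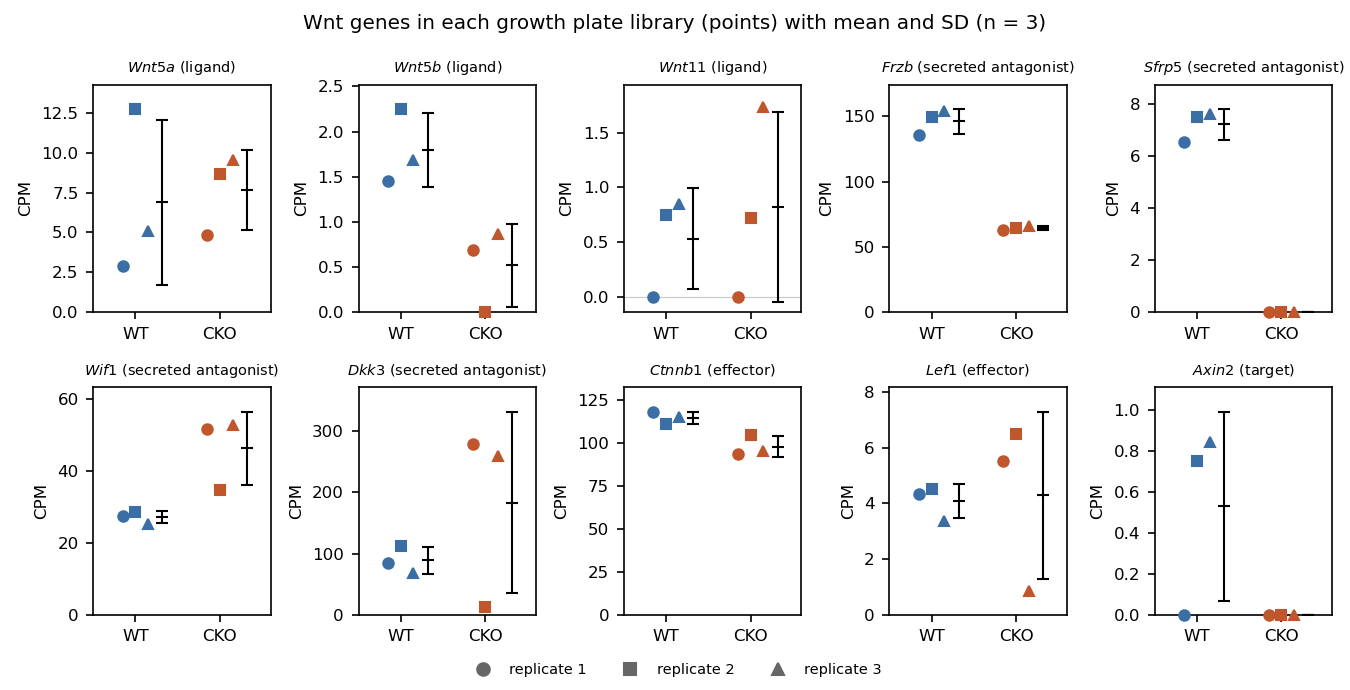
CPM (linear axes, a separate scale for each gene) of the 10 Wnt genes in the WT libraries (blue) and the CKO libraries (orange), with a marker shape for each replicate number and a black dash and bar for the mean and SD (n = 3). Frzb lies at 136 to 154 CPM in WT and at 63.3 to 65.9 CPM in CKO, Sfrp5 is at 0 in each CKO library, and Dkk3 has CKO 2 at 12.3 CPM below the other libraries.

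The promoters of the antagonist genes whose libraries did not overlap between genotypes, Frzb, Sfrp5 and Wif1, are shown. Each is the 250 bases before the RefSeq start on GRCm38.p6, 5′ to 3′ on the strand of the gene. GENCODE starts Frzb and Wif1 farther upstream than RefSeq does, so that 229 bases of the Frzb window, its TCF/LEF match included, and 44 bases of the Wif1 window lie inside the gene as positioned here. Capitals mark matches on either strand to GGGCGG (the GC box of Sp factors), CTTTGA (the core bound by TCF/LEF factors), ACAATG (a core bound by SOX factors) and TATAAA (the TATA box).
Frzb, chr2:80447397-80447646, minus strand: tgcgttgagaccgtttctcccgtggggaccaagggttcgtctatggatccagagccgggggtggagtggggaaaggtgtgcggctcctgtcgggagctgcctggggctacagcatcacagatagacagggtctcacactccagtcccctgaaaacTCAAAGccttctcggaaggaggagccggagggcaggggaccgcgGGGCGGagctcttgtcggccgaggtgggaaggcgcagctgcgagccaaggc
Sfrp5, chr19:42202253-42202502, minus strand: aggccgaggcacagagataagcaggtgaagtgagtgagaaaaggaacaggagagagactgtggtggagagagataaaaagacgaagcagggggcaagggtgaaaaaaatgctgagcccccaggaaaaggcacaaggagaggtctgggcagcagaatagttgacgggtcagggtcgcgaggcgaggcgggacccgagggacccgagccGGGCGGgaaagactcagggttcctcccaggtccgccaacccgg
Wif1, chr10:121033754-121034003, plus strand: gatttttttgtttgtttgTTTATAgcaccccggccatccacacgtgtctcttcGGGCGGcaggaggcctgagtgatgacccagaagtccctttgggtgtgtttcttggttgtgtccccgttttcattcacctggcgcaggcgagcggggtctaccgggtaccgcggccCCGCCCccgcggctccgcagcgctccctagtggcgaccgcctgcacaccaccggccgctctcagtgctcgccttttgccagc

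All 3 windows held the GC box, once in Frzb and Sfrp5 and at 2 places in Wif1, as did 32.7% of the 32851 RefSeq promoter windows of this length. The TCF/LEF core was found in Frzb alone among the 3, on the reverse strand and 95 bases before the start, and 13.8% of all windows held it. None of the 3 held the SOX core (10.7% of all windows), and Wif1 held the TATAAA letters (12.4% of all windows) near the far end of its window. The window was GC-rich for each gene, at 64.4% for Frzb, 59.6% for Sfrp5 and 62.8% for Wif1. Such matches describe the letters of these windows and not sites in use.

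Frzb (ENSMUSG00000027004), also known as secreted frizzled-related protein 3 and a typical product of cartilage, codes for protein and lies at chromosome 2, 80411970 to 80447625 (GRCm38, minus strand). It was the most abundant of the 10 genes per length in the WT libraries. Frzb reached 136, 149 and 154 CPM in replicates 1, 2 and 3 of WT, against 63.3, 64.2 and 65.9 CPM in those of CKO. The CKO libraries lay close together and far below each WT library. The means were 146 ± 9.50 CPM (SD, n = 3) and 64.5 ± 1.31 CPM (SD, n = 3), from 568 and 257 reads. By limma it fell by 1.17 ± 0.16 on the log2 scale (SE, adjusted p = 0.00382), and fits without 1 library gave -1.22 to -1.13.

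In bulk RNA, fewer cells that express a gene and less RNA of it per cell cannot be told apart. Cartilage markers fell in the same libraries, 6 of 8 past limma's adjusted test, where 2.60% of all genes tested were lower. Sox9 and Hapln1 did not pass it (limma, adjusted p = 0.137 and 0.518). Frzb was therefore also set against the 8 markers within each library, a step chosen after the values were seen. Per 1000 reads of Col2a1, the main collagen gene of cartilage, Frzb had 49.8, 47.7 and 39.0 reads in WT 1, 2 and 3 and 44.8, 32.9 and 46.2 reads in CKO 1, 2 and 3. These ratios overlapped between genotypes, and so did those to Acan, Sox9 and Col11a1. Per 1000 reads of Hapln1, the link protein gene, Frzb had 129 to 160 reads in WT and 72.1 to 75.8 reads in CKO. Per 1000 reads of Comp it had 82.6 to 119 reads in WT and 331 to 390 reads in CKO. The ratios to Matn1 (19.6 to 23.3 against 103 to 181) and Col9a1 (70.0 to 86.9 against 141 to 234) were likewise higher in CKO without overlap. The fall of Frzb was thus not told apart from that of Col2a1 (log2 change -1.03, limma's adjusted p = 0.0119), while of the 8 markers the ratios overlapped for 4, were higher in CKO for 3 and lower for 1.

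Sfrp5 (ENSMUSG00000018822), another antagonist with a Frizzled-like domain, codes for protein and lies at chromosome 19, 42197971 to 42202252 (GRCm38, minus strand). It had 9, 10 and 9 reads in WT 1, 2 and 3 (6.52, 7.50 and 7.60 CPM) and 0 reads in each of CKO 1, 2 and 3. The WT libraries were alike, and no CKO library held a read of it. A count of 0 allows 3 reads over the CKO group. Against these, Sfrp5 was at least 9.57-fold lower in CKO if its WT reads are taken as exact. This covers counting error of the CKO group only. Limma gave an adjusted p = 0.00414, and 0.00326 to 0.0313 in fits without 1 library. The gene rested on 28 reads in all, which edgeR's own filter removed, and DESeq2 gave no adjusted p for it.

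Wif1 (ENSMUSG00000020218), which encodes Wnt inhibitory factor 1, codes for protein and lies at chromosome 10, 121033960 to 121100650 (GRCm38, plus strand). It had levels of 27.5, 28.5 and 25.3 CPM (WT 1, 2 and 3) against 51.6, 34.6 and 52.9 CPM (CKO 1, 2 and 3). Each CKO library lay above each WT library, with CKO 2 nearest to them. The means were 27.1 ± 1.63 CPM (SD, n = 3) and 46.4 ± 10.2 CPM (SD, n = 3), from 106 and 184 reads. The log2 change of 0.73 (standard error 0.23) did not pass the adjusted test (limma, adjusted p = 0.101). Without CKO 2 it was 0.92 and passed (limma, adjusted p = 0.0184), in a fit that called 5.74% of all genes tested higher. The direction of Wif1 was thus opposite to that of Frzb and Sfrp5, each against the same WT libraries.

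Dkk3 (ENSMUSG00000030772), the Dickkopf-related gene, codes for protein and lies at chromosome 7, 112116017 to 112159057 (GRCm38, minus strand). It had levels of 85.5, 113 and 68.4 CPM (WT 1, 2 and 3) against 279, 12.3 and 260.0 CPM (CKO 1, 2 and 3). CKO 1 and CKO 3 lay above each WT library and CKO 2 lay below each of them, with 17 reads against 405 and 300. The log2 change over all libraries was 0.17 ± 0.92 (SE, limma, adjusted p = 0.941). Without CKO 2 it was 1.62 ± 0.20 (SE, limma, adjusted p = 0.00101), without CKO 1 it was -0.58, without CKO 3 it was -0.53, and without WT 3 it was -0.0030. On the recovered reads, the log2 change was 0.99 with edgeR and 1.02 with DESeq2 (adjusted p = 0.450 and 0.702). Whether Dkk3 passed the test thus turned on CKO 2.

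**Figure D2:**
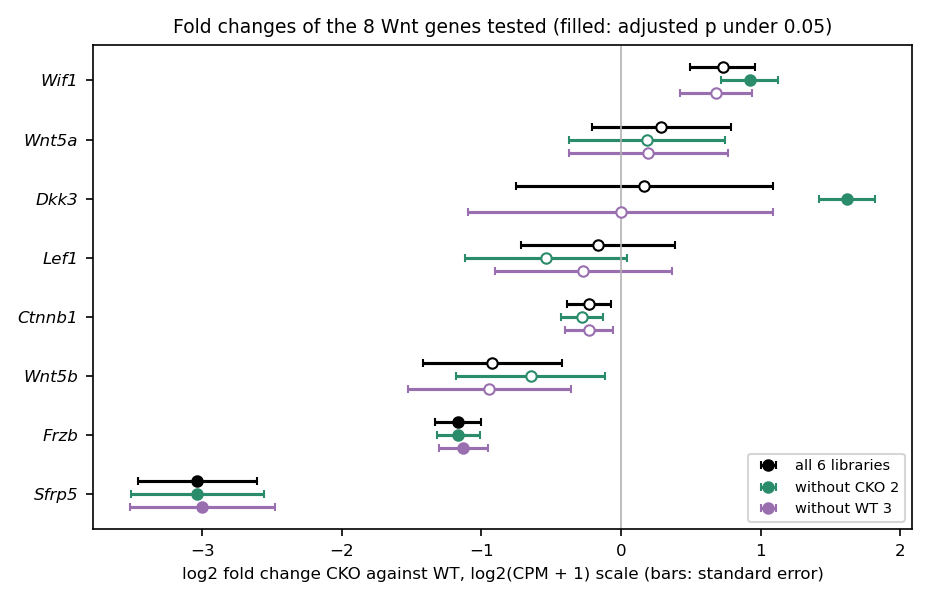
Log2 fold change of CKO against WT on the log2(CPM + 1) scale (x axis) for the 8 Wnt genes tested (y axis), with all 6 libraries (black), without CKO 2 (green) and without WT 3 (purple). Bars are standard errors and filled points have limma's adjusted p under 0.05. Frzb and Sfrp5 are filled in all 3 fits, while Dkk3 moves from 0.17 to 1.62 and Wif1 from 0.73 to 0.92 when CKO 2 is left out.

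A split of CKO 2 from the other CKO libraries was also seen in some genes of hypertrophic cartilage and bone. Of 12 such markers tested, CKO 2 was the lowest CKO library for 9, and under 0.5 of both others for 6 (Mmp13, Ibsp, Alpl, Bglap, Bglap2 and Dmp1). It was the highest for Col10a1, the collagen gene of hypertrophic cartilage, and lay between the others for Spp1 and Sp7. Among the 9 the margin was small for Col1a1 (240 CPM in CKO 2, 245 in CKO 1 and 269 in CKO 3). Few reads were at hand for Dmp1 (3, 1 and 3 in CKO 1, 2 and 3) and for Bglap (39, 4 and 33). How often CKO 2 was the lowest over all genes was not counted, so these counts are not read as particular to the markers. Ibsp, which encodes bone sialoprotein, was at 708, 83.0 and 808 CPM in CKO 1, 2 and 3, against 82.5 to 129 CPM in WT. Mmp13, a collagenase gene of late hypertrophic chondrocytes, was at 2155, 377 and 2301 CPM in CKO 1, 2 and 3, against 257 to 650.5 CPM in WT. Bglap2, an osteocalcin gene whose reads may be shared with its close copy Bglap, was at 290, 35.4 and 257 CPM in CKO 1, 2 and 3, against 30.4 to 69.0 CPM in WT. Spp1 (osteopontin) was at 11114 to 12045 CPM in the CKO libraries and 1037 to 3769 CPM in WT. Over the whole list of 7 hypertrophic markers the summed level, most of it Spp1, was 1525 to 4647 CPM in WT and 12412 to 15238 CPM in CKO. The 7 osteoblast markers in the table summed to 798 to 1342 CPM in WT and to 895, 496 and 872 CPM in CKO 1, 2 and 3. The part of these cells, and of the muscle markers that were highest in CKO 2, in the values of Dkk3 and Wif1 was not tested. Ibsp, Mmp13, Bglap2 and Spp1 were picked from the lists after their values were seen. Other genes of these lists went the other way. Col1a2 was lower in CKO (log2 change -1.09, limma, adjusted p = 0.0191). Col1a1 and Pth1r were lower in each CKO library than in each WT library, without passing the adjusted test.

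**Figure D3:**
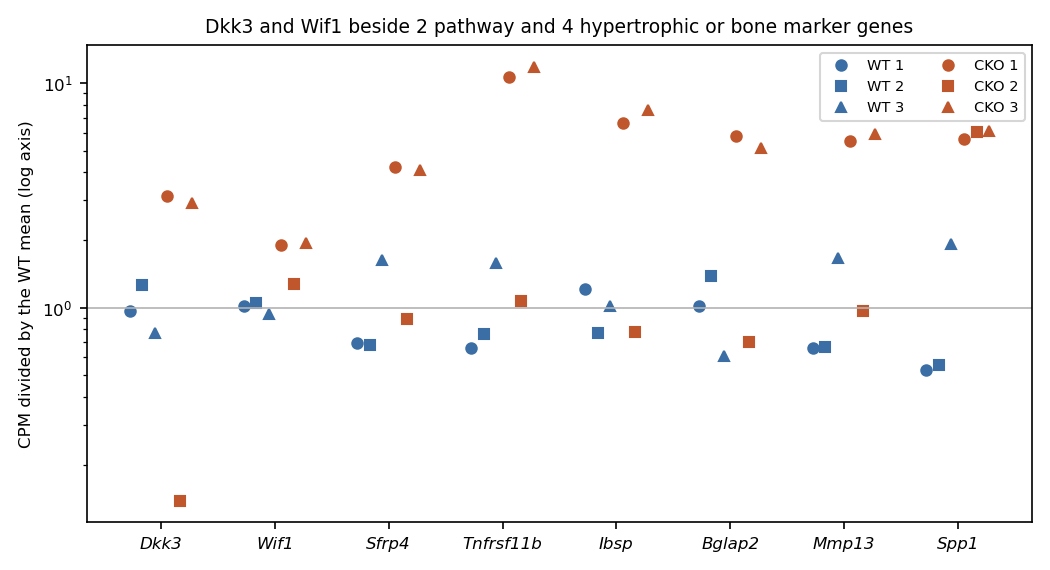
CPM divided by the mean of the WT libraries (log axis) for Dkk3, Wif1, the pathway genes Sfrp4 and Tnfrsf11b, and the marker genes Ibsp, Bglap2, Mmp13 and Spp1, with 1 point for each WT library (blue) and CKO library (orange). CKO 2 (orange square) is within the WT range for Sfrp4, Tnfrsf11b, Ibsp, Bglap2 and Mmp13, below it for Dkk3 and above it for Wif1 and Spp1, where CKO 1 and CKO 3 also lie above it.

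The ligand genes were close to the limit of this depth. Wnt5a (ENSMUSG00000021994; GRCm38 chromosome 14, 28504750 to 28527448) had levels of 2.90, 12.8 and 5.07 CPM (WT 1, 2 and 3) against 4.81, 8.66 and 9.53 CPM (CKO 1, 2 and 3). The genotypes overlapped, and WT 2 was the highest of the 6 libraries. Its log2 change was 0.29 ± 0.50 (SE, limma, adjusted p = 0.785), from 27 reads in WT and 30 in CKO, and it was -0.12 without WT 1. The ratio of CKO to WT over the pooled reads had a 95% exact interval from 0.623 to 1.90, so that neither a small rise nor a small fall could be told at this depth. Wnt5b (ENSMUSG00000030170; chromosome 6, 119432531 to 119544347), the paralog of Wnt5a, had 2, 3 and 2 reads in WT and 1, 0 and 1 reads in CKO. Its pooled level in CKO was 0.279 of that in WT (95% exact interval 0.0283 to 1.46), and limma's adjusted p was 0.318. Wnt11 (ENSMUSG00000015957; chromosome 7, 98835112 to 98855195) had 2 reads over the WT libraries and 3 over the CKO libraries, and no fold is given. Of 16 other Wnt ligand genes, 10 were in the table and 0 reached the mean of 1 CPM. The highest of these, Wnt4, had 1, 4 and 2 reads in WT and 0 in CKO. Against 3 reads over the CKO group it was at least 2.39-fold lower if its WT reads are taken as exact. It was below the limit of 1 CPM, and without a filter edgeR gave an adjusted p = 0.140.

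Ctnnb1 (ENSMUSG00000006932; GRCm38 chromosome 9, 120929216 to 120960507), the gene of β-catenin, had levels of 118, 111 and 115 CPM (WT 1, 2 and 3) against 93.5, 105 and 95.3 CPM (CKO 1, 2 and 3). The CKO libraries lay below the WT libraries by a small margin. The means were 115 ± 3.54 CPM (SD, n = 3) and 97.8 ± 5.97 CPM (SD, n = 3), and the log2 change of -0.23 (standard error 0.16) did not pass the test (limma, adjusted p = 0.450). The ratio of the pooled reads, 391 in CKO and 447 in WT, was 0.853 (95% exact interval 0.743 to 0.980). That interval covers counting error only and not the spread between libraries, so it is not a test of genotype. Control of β-catenin acts mainly on the protein, which was not measured here. Lef1 (ENSMUSG00000027985; chromosome 3, 131110471 to 131224356), the DNA-binding partner of β-catenin, had 6, 6 and 4 reads in WT and 8, 9 and 1 reads in CKO. The single read of CKO 3 stood apart, the log2 change was -0.17 ± 0.55 (SE, limma, adjusted p = 0.897), and without CKO 3 it was 0.47. Axin2 (ENSMUSG00000000142; chromosome 11, 108920349 to 108950783) had 0, 1 and 1 reads in WT and 0 in each CKO library. A count of 0 in 3993433 reads allows up to 0.751 CPM, so a difference in Axin2 was not detectable at this depth.

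Per kilobase of annotated exon, the order of the mean levels in the WT libraries was Frzb (45.2 CPM per kb), Dkk3 (26.4), Ctnnb1 (22.1), Wif1 (11.2), Sfrp5 (3.79), Wnt5a (0.883), Wnt5b (0.677), Lef1 (0.464), Wnt11 (0.129) and Axin2 (0.0966). The ranges over the WT libraries overlapped between Dkk3 and Ctnnb1, between Wnt5a and Wnt5b and between Wnt11 and Axin2, and no other neighbours overlapped. In the CKO libraries Frzb (19.9 CPM per kb), Wif1 (19.1) and Ctnnb1 (18.8) stood at overlapping levels, and the range of Dkk3, from 3.65 to 82.9 CPM per kb, spanned all 3. The exon length counts each annotated exon once, whether or not it is used in cartilage.

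The other genes of the pathway were taken from a list of 133 genes in 9 roles, of which 118 were in the table and 91 were tested. The list too was chosen with earlier results of these data known, so shares called in it or in a role are not neutral. At limma's adjusted p under 0.05, 3 were higher and 3 were lower in CKO (3.30% of the 91 in each direction), near the 3.18% and 2.60% of all genes tested, and their median log2 change was 0.069. Without CKO 2 there were 6 higher and 4 lower of 92 (6.52% and 4.35%, beside 5.74% and 5.03% of all genes). Without WT 2 there was 1 in each direction of 92 (1.09%, beside 1.10% higher and 0.65% lower of all genes).

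Among genes of ligand release and transport, limma called 1 of 6, lower in CKO, where 2.60% of all genes tested were lower. Gpc3, a glypican of the cell surface that modulates Wnt and Hedgehog ligands, had levels of 156, 149 and 191 CPM (WT 1, 2 and 3) against 47.5, 35.4 and 41.6 CPM (CKO 1, 2 and 3). It had the lowest adjusted p of the 91 genes, with no overlap between genotypes and a log2 change of -1.97 ± 0.19 (SE, limma, adjusted p = 6.54e-04). Wls, which carries Wnt proteins to the cell surface, was the most abundant gene of this role, at 291 and 289 CPM in CKO 1 and CKO 3, 162 CPM in CKO 2 and 141 to 207 CPM in WT. Its log2 change was 0.46 (limma, adjusted p = 0.313), and 0.74 without CKO 2 (limma, adjusted p = 0.0211).

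Limma called 0 of 14 receptors and co-receptors, with 1 at an unadjusted p under 0.05, where 21.3% of all genes tested were under it. DESeq2 called 0 of the 5 it gave an adjusted p, and edgeR called 1 of 4, lower, against 4.71% of all genes it tested. In both limma and edgeR that gene was Fzd2, chosen after its values were seen, at 15.1 ± 0.118 CPM for WT and 6.73 ± 1.05 CPM for CKO (SD, n = 3 each), with a log2 change of -1.07 (limma, adjusted p = 0.0663, and 0.0405 without CKO 2). The most abundant receptor gene was Ryk, which overlapped between genotypes at 16.7 to 32.1 CPM in WT and 22.5 to 26.1 CPM in CKO. Of the R-spondin axis, which raises the number of Frizzled receptors at the surface, limma called 0 of 3 genes, with 1 at an unadjusted p under 0.05, edgeR 0 of 2 and DESeq2 0 of 3. Rspo3 was the highest of them, at 38.0 to 45.8 CPM in WT and 61.9, 15.2 and 45.9 CPM in CKO 1, 2 and 3.

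Limma called 0 of 5 other antagonists, with 3 at an unadjusted p under 0.05, where 21.3% of all genes tested were under it. EdgeR called 0 of 2, and 1 of 8 without its filter, and DESeq2 called 1 of 2, the gene being Sfrp4 (higher) in both. DESeq2 called 4.08% of all genes higher. Sfrp4, a further secreted frizzled-related gene and the most abundant of them, had 18, 17 and 36 reads in WT 1, 2 and 3 and 115, 23 and 89 reads in CKO 1, 2 and 3. As for Dkk3, CKO 2 stood apart from CKO 1 and CKO 3, here within the range of the WT libraries. The log2 change was 1.39 (limma, adjusted p = 0.178) and without CKO 2 it was 2.12 (limma, adjusted p = 0.00390). Sfrp1 and Sfrp2 were lower in each CKO library than in each WT library, with 26 and 24 reads in WT and 7 and 6 reads in CKO (limma, adjusted p = 0.124 and 0.0965). They were chosen after their values were seen.

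Limma called 0 of 18 genes of the cytoplasmic relay and the β-catenin destruction complex, with 2 at an unadjusted p under 0.05, and 0 of 14 nuclear factors, with 1. Of all genes tested, 21.3% were under this unadjusted p. EdgeR called 0 of the 11 and 10 genes of these roles that it tested, and DESeq2 0 of 13 and 10. The most abundant were Csnk1a1, a kinase gene of the destruction complex, at 95.9 ± 13.6 CPM for WT and 80.4 ± 13.4 CPM for CKO (SD, n = 3 each), and Bcl9l, a co-activator gene of β-catenin, at 33.5 ± 3.91 and 35.4 ± 6.85 CPM. Both overlapped between genotypes.

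Of 11 other genes known as targets of β-catenin, limma called 3, all higher in CKO, where 3.18% of all genes tested were higher. EdgeR called 4 of 5 higher and DESeq2 4 of 6, against 4.85% and 4.08% of all genes they tested. The 4 were these 3 and Tnfrsf11b. Ccnd1, which encodes cyclin D1, had levels of 28.3, 36.0 and 32.9 CPM (WT 1, 2 and 3) against 76.3, 80.1 and 85.8 CPM (CKO 1, 2 and 3), which is a log2 change of 1.30 ± 0.19 (SE, limma, adjusted p = 0.00505). Cd44, the gene of the hyaluronan receptor, had levels of 15.9, 13.5 and 13.5 CPM (WT 1, 2 and 3) against 39.9, 39.0 and 35.5 CPM (CKO 1, 2 and 3), which is a log2 change of 1.35 ± 0.23 (SE, limma, adjusted p = 0.00936). For both genes the genotypes were far apart. Without WT 2 or without CKO 1 the adjusted p of Cd44 was 0.0501 and 0.0526. Fosl1, a gene of the AP-1 transcription factor, had 6, 0 and 3 reads in WT and 21, 91 and 24 reads in CKO, with CKO 2 the highest. Its limma adjusted p was 0.0190, and 0.0663 without WT 2 and 0.0602 without CKO 3. Ccnd1, Cd44 and Fosl1 are also known to respond to growth factor and AP-1 signaling, and they are not specific to the Wnt pathway. Tnfrsf11b, the gene of osteoprotegerin, was the most abundant of the role, at 611, 61.4 and 673 CPM in CKO 1, 2 and 3 and 37.7 to 90.4 CPM in WT. Its log2 change was 2.45 (limma, adjusted p = 0.0879), and 3.57 without CKO 2 (limma, adjusted p = 8.68e-05). With all 6 libraries it was called by edgeR (adjusted p = 0.0423) and DESeq2 (adjusted p = 0.0296).

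In the planar cell polarity and calcium branch limma called 2 of 21 genes, both lower in CKO, where 2.60% of all genes tested were lower. Celsr2, an atypical cadherin gene, had 12, 12 and 8 reads in WT and 2, 2 and 0 reads in CKO. Like Sfrp5, Celsr2 passed the filter on mean CPM through its WT libraries, so counts of lower genes that include it are not neutral. For Celsr2 few reads were at hand. The log2 change of Celsr2 was -2.34 (limma, adjusted p = 0.0214), with an adjusted p of 0.10 without WT 1, 0.0989 without WT 2 and 0.0694 without CKO 3. Daam2, a formin gene whose product binds Dishevelled, had levels of 17.4, 31.5 and 38.0 CPM (WT 1, 2 and 3) against 8.25, 10.1 and 9.53 CPM (CKO 1, 2 and 3), without overlap. Its log2 change was -1.48 (limma, adjusted p = 0.0282), with an adjusted p of 0.127 without WT 2, 0.0814 without WT 3, 0.0973 without CKO 1 and 0.0943 without CKO 3. Rhoa, the small GTPase gene and the most abundant of the branch, was at 647 ± 43.1 CPM for WT and 685 ± 47.1 CPM for CKO (SD, n = 3 each).

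**Figure D4:**
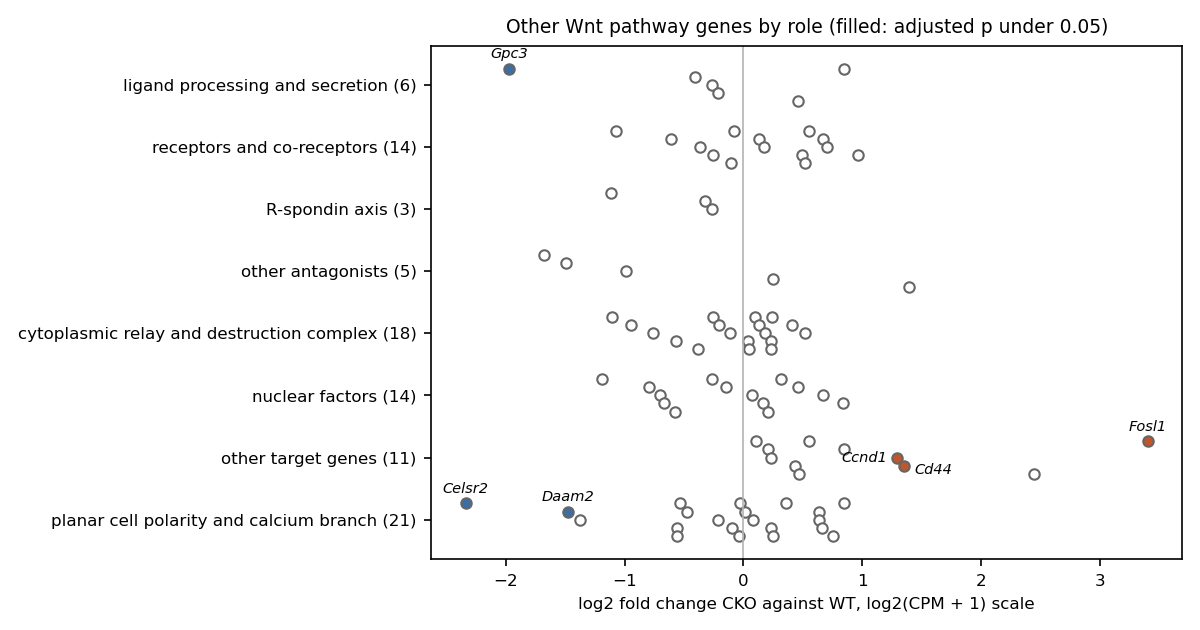
Log2 fold change of CKO against WT on the log2(CPM + 1) scale (x axis) for the other Wnt pathway genes tested, by role (y axis, number of genes tested in parentheses, Notum shown in both of its roles). Filled points have limma's adjusted p under 0.05 and are named (orange higher, blue lower). Called genes are Ccnd1, Cd44 and Fosl1 among the targets, Gpc3 in ligand release and transport, and Celsr2 and Daam2 in the planar cell polarity and calcium branch.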

How the data were processed

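Poly(A) RNA of 6 libraries (3 labelled WT, 3 labelled CKO) was analysed from 1 table, in which the authors deposited CPM per gene and library. Each library was matched to its column by genotype and replicate number. A stranded kit was used, and the submitters' processing notes name cutadapt 2.5, HISAT2 and featureCounts 1.6.3. The genome build, annotation and strand setting are not given in the sources used here. Divided by what 1 read is worth, 100% of the CPM values came out whole (tolerance 0.001 reads), which gave the reads per library.

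Limma 3.58.1 (R 4.3.3) was fitted to log2(CPM + 1), over genes averaging 1 CPM or more, with a mean-variance trend and no covariate. Fold changes on this scale understate the change of low genes. Alternatives were a pseudocount of 0.1, no filter, TMM-scaled CPM, a replicate term, each library left out, and, on recovered reads, edgeR 4.0.16 (quasi-likelihood) and DESeq2 1.42.0. The scripts were tested on simulated counts. The 10 genes and all lists were chosen with earlier results of these data known. The pathway genes named are those past the adjusted threshold and the most abundant of each role, and others are said to be chosen after their values were seen.

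Positions and exon lengths are from GENCODE M21 (GRCm38), in which 15212 of 15217 Ensembl identifiers were found, and promoters are from RefSeq, which matched 8 of the 10 genes. On the opposite strand, exons of Ctnnb1, Wnt5a, Wnt11, Lef1 and Axin2 overlap those of another gene, whose reads could be shared if strand was not used in counting. No copy at another locus reached 90% identity over 300 bp (BLAST 2.17.0) for the 10 genes. Intervals and floors cover counting error only, and folds against a floor take the WT reads as exact.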

Additional observations from a re-analysis of the deposited data

How the results depend on the processing

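Frzb, Ctnnb1, Gpc3 and Ccnd1 kept direction and side of the threshold in each of 14 alternatives, and Sfrp5 in each of the 11 that gave it an adjusted p. Among the Wnt genes, the count lower at the adjusted threshold was 2, and 1 with edgeR (TMM or RLE factors) and with DESeq2, where Sfrp5 was removed by the filter or had no adjusted p. By the criterion of the study it was 2, and 1 with edgeR (TMM or RLE factors). The count higher was 0, and fits without 1 library gave between 0 and 2 at the adjusted threshold and between 0 and 1 by the criterion, the upper values without CKO 2. The counts lower were 2 in each of these fits. For the other pathway genes the fits without 1 library gave between 1 and 6 higher and between 1 and 4 lower, and 5 were higher with DESeq2 and with edgeR without a filter. Directions reversed for Dkk3 (log2 change -0.58 without CKO 1, -0.53 without CKO 3 and -0.0030 without WT 3, in a range up to 1.62), Wnt5a (-0.12 without WT 1, in a range up to 0.79) and Lef1 (0.47 without CKO 3, in a range down to -0.54, and 0.064 with edgeR without a filter), and the cause was not tested.

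No pairing by replicate number was seen: deviations from the genotype means correlated at 0.038, -0.13 and -0.10 for replicates 1, 2 and 3. No library correlated best with its own number. With 3 libraries a group this cannot exclude that littermates were paired. With a replicate block the Wnt genes had 0 higher and 2 lower and the pathway genes 2 higher and 2 lower, with Fosl1 (adjusted p = 0.0544) and Daam2 (adjusted p = 0.0503) past limma's threshold no longer. A pseudocount of 0.1 gave an adjusted p of 0.0667 for Fosl1 and 0.0790 for Celsr2. At 1 read per 0.688 to 0.867 CPM, the ligands, Lef1 and Axin2 were limited by depth.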
